A study of Zea mays with 3 samples.

Results

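The interval described here was chromosome 4 of maize from 103000001 to 116000000 in B73 RefGen_v4, cut into 1300 bins of 10 kb out of 210639 bins on chromosomes 1 to 10. It was chosen because it holds the B73 centromere of this chromosome and because part of that centromere was nearly empty in F3-600, so it was chosen by the read counts per bin that follow, which are given as a description without a test. At the ends of the interval B73 was near its library median on both sides of the limit, as the bins just inside it, starting at 103000001 and 115990001, were at 0.500 and 2.03 times the library median in B73, and the bins just outside, starting at 102990001 and 116000001, at 0.469 and 1.31 times.

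Chromatin immunoprecipitation followed by sequencing (ChIP-seq) was carried out with a rabbit antiserum against CENH3 peptides on nuclei of young leaves that had been digested with micrococcal nuclease. There were 3 libraries, 1 each of the inbred line B73, which the labels call the control, and of F3-152 and F3-600, which the labels give by name only. The series title speaks of irradiated material, but the pedigree, the dose and the genetic background of these lines are not given in the sources used here, nor is the number of plants behind each library. With 1 library per line no difference between lines could be tested. The line also cannot be told apart from the sequencing run, since by its read names each library came from a different instrument. The intervals at 95% given below therefore cover counting error only. A library is a bulk of many leaf nuclei, so a lower level in all nuclei and the absence of CENH3 or of the sequence in some of them cannot be told apart. No input library was among the 3. A low read level in a line therefore cannot be told apart from sequence that is missing or changed throughout that line.

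CENH3 is the variant of histone H3 that replaces the canonical histone in the nucleosomes of an active centromere, and the kinetochore is built on these nucleosomes. Maize centromeres are made of CentC tandem repeats and of centromeric retrotransposons (CRMs), with stretches of other sequence between them, and the position of CENH3 along a chromosome can differ between lines. Micrococcal nuclease cuts the linker between nucleosomes, so each sequenced fragment stands for 1 nucleosome or for a few neighbouring ones. Reads from a repeat with many near-identical copies cannot be placed, so the measurement rests on the sequence within the centromere that occurs at a single place.

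The interval held 99090 reads in B73, 330437 in F3-152 and 209919 in F3-600, or 1.29%, 1.58% and 1.45% of the reads on chromosomes 1 to 10. Each bin was divided by its own library's median over non-empty bins, which was 32 reads in B73, 90 in F3-152 and 64 in F3-600. All levels below are in units of this median, and a bin at 10 times or more is called enriched. In 60 bins no library had a read, among them runs of 270 kb from 107470001, of 50 kb from 109220001, of 50 kb from 109650001, of 110 kb from 109820001 and of 60 kb from 110030001. The last 4 of these lie within the centromere. Whether reads can be placed in them was not tested, so nothing is said of CENH3 there.

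With enriched bins up to 500 kb apart joined, CENH3 was concentrated in a single domain in each of the 3 libraries, and every enriched bin of the interval lay in it. Joined over 100 kb, the enriched bins no longer formed a single domain in any library. The B73 domain ran from 109050001 to 110230000, a span of 1.18 Mb with 62 enriched bins, whereas those of F3-152 and F3-600 both ran from 109090001 to 110490000, a span of 1.40 Mb with 59 and 55 enriched bins. Over chromosomes 1 to 10, 0.355% of the bins with a read in any library were enriched in B73, 0.311% in F3-152 and 0.237% in F3-600. With these settings the start of the domain was 40 kb farther right in both F3 lines, and its end 260 kb farther right. At the B73 start, the bin outside was at 7.53 times the median and the first bin inside at 10.4 times, while F3-152 and F3-600 were at 3.84 and 4.16 times in that first bin. At the F3 start, the bin outside was at 1.76 times in F3-152 and 3.66 times in F3-600, and the first bin inside at 11.7 and 11.9 times. At the F3 end, the last bin inside was at 10.6 and 10.5 times and the next at 5.72 and 1.95 times. The order of the spans depended on the settings: B73 had the longer span with bins of 5 kb (1730 kb against 1390 kb in both F3 lines) and with enriched bins joined over 100 kb in place of 500 kb (770 kb against 550 kb). With a threshold of 5 times the spans were 1750 kb in B73, 2000 kb in F3-152 and 1930 kb in F3-600. With libraries scaled to the median bin of the outer 4 Mb on each side of the interval, a setting chosen after the data were seen, the enriched bins of F3-152 covered 290 kb in place of 590 kb.

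**Figure D1:**
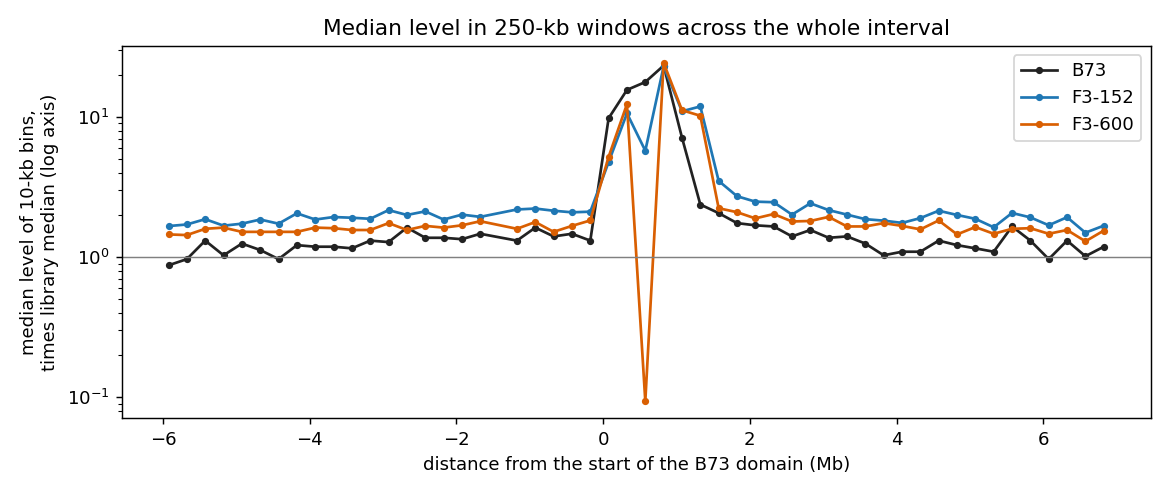
Median level of the 10-kb bins in windows of 250 kb across the whole interval (log axis, times the library median) against the distance from the start of the B73 domain, for 3 libraries with 1 line each. Only windows with at least 5 bins that held reads in any library are drawn. All libraries rise to between 22.9 and 24.4 times in the window starting at 109750001, and F3-600 falls to 0.0938 times in the window before it.

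The enriched bins of the domain held 24452 fragments in B73, 0.547% of its fragments on chromosomes 1 to 10 (exact binomial interval 0.540% to 0.554%). They held 55891 fragments in F3-152, or 0.520% (0.516% to 0.525%), and 40701 in F3-600, or 0.546% (0.541% to 0.551%). The share of F3-600 lay within the counting interval of B73 here but not under other settings: over reads it was 0.461% against 0.521% in B73 with repeats removed and 0.568% against 0.510% with mapping qualities of at least 30, and with bins called on fragments 0.533% against 0.555%. Within the domain, the enriched bins were broken into 17 runs in B73, 24 in F3-152 and 19 in F3-600, and their median level was 20.8, 18.0 and 22.0 times. Of the bins enriched in any library, 32 were enriched in all 3, 22 in B73 alone, 5 in B73 and F3-152, 3 in B73 and F3-600, 17 in both F3 lines but not in B73, 5 in F3-152 alone and 3 in F3-600 alone.

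**Figure D2:**
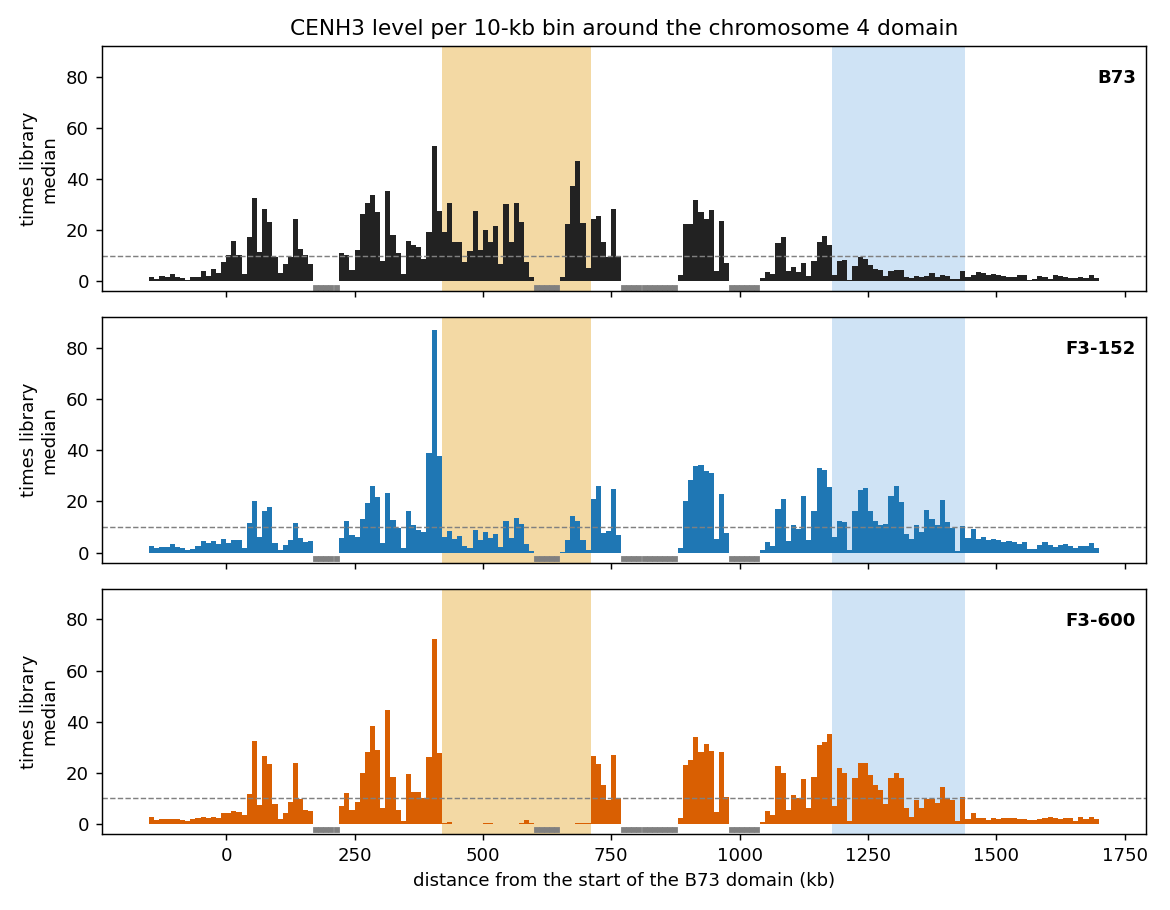
Level of each 10-kb bin (bars, times the library median) around the domain in B73, F3-152 and F3-600 against the distance from the start of the B73 domain, with the dashed line at 10 times and grey squares at bins without a read in any library. The orange band is the stretch of 290 kb in which F3-600 has no bin above 1.59 times, and the blue band is the extension of 260 kb beyond the B73 domain.

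The part that set F3-600 apart was a stretch of 290 kb from 109470001 to 109760000 inside the domain. The limits of this stretch and of the segments beside it were chosen after their values were seen, as the longest run of bins below 2 times the median between 2 enriched bins of F3-600. It comprised 29 bins, of which 24 held reads in any library and 18 were enriched in B73. The B73 library had 14317 reads there, F3-152 had 13786 and F3-600 had 374. In levels, the 24 bins ranged from 1.62 to 47.0 times in B73 with a median of 17.3 times, from 0.311 to 14.4 times in F3-152 with a median of 5.74 times, and from 0 to 1.59 times in F3-600 with a median of 0.0938 times. F3-600 was thus not only without enrichment but below the level of the chromosome around the centromere, since its median was 1.62 times in the left flank, from 103000001 to 109050000, and 1.69 times in the right flank, from 110490001 to 116000000. F3-152 stayed above its flanks, which had medians of 1.92 and 2.01 times, and below B73.

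Over fragments, the scaled count of F3-600 in the stretch was 0.0132 times that of B73 (exact conditional binomial interval 0.0114 to 0.0153) and that of F3-152 was 0.335 times (0.325 to 0.346). F3-600 was at 0.0395 times F3-152 (0.0342 to 0.0455). With libraries scaled to the outer 4 Mb on each side the ratios to B73 were 0.00981 times (F3-600) and 0.209 times (F3-152), and for F3-600 the ratio was 0.00844 times with mapping qualities of at least 30 and 0.00186 times with reads at mapping quality 60 alone. F3-600 was at least 4-fold below B73 in 24 of the 24 bins of the stretch compared, and F3-152 in 5 of 24. The stretch was cut where F3-600 was below 2 times its median. In the 18 bins enriched in B73 a 4-fold gap to F3-600 was therefore fixed by that choice. In the whole interval, 24 of 1095 bins compared were 4-fold lower in F3-600 than in B73, or 2.19%, against 11.6% over chromosomes 1 to 10, so all such bins of the interval lay in this stretch and the interval as a whole was below the background. For F3-152 it was 5 of 1115, or 0.448%, against 10.4%. Between the F3 lines, 21 of 1123 bins were 4-fold lower in F3-600 than in F3-152, or 1.87% against 1.98%, and all 21 lay in the stretch as well.

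Of the 62 bins enriched in B73, 37 were enriched in F3-152 (59.7%) and 35 in F3-600 (56.5%), against 55.2% and 39% of the 734 bins enriched in B73 on chromosomes 1 to 10. In F3-600, 10 of the 62 were nearly empty, that is, below 0.1 times its median, and 18 were below 1 time, and all 18 lay in the stretch. None was nearly empty or below 1 time in F3-152. Of the 734 bins, 3.41% were nearly empty in F3-600 and 0.954% in F3-152. Only chromosomes whose B73 domain had at least 10 enriched bins were compared. Among these, the 3 other B73 domains that kept enriched bins in both F3 lines lay on chromosomes 3, 5 and 10. On chromosome 10, 0 of 112 B73-enriched bins were below 1 time the median in F3-600, and on chromosome 3 it was 0 of 35. On chromosome 5, 21 of 123 were below 1 time and 5 nearly empty in F3-600, so bins of this kind were not found on chromosome 4 alone. On chromosome 2, where 0 of 93 B73-enriched bins were enriched in either F3 line, 10 were nearly empty in F3-600 and 7 in F3-152. On chromosomes 8 and 9, 0 were nearly empty in either line. Below 1 time the median in F3-600 were 50 of 93 B73-enriched bins on chromosome 2, 22 of 107 on chromosome 8 and 12 of 135 on chromosome 9. In F3-152 these counts were 47, 15 and 0.

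Single bins show the size of the step. The bin starting at 109720001 had 1186 reads in B73 (37.1 times), 1300 in F3-152 (14.4 times) and 3 in F3-600 (0.0469 times). The next bin, from 109730001, was the second highest of the interval in B73 with 1505 reads (47.0 times), and had 1129 reads in F3-152 (12.5 times) and 18 in F3-600 (0.281 times). A single run of at least 3 neighbouring bins was enriched in B73 and nearly empty in F3-600, from 109590001 to 109620000. In its 3 bins B73 had 961, 491 and 974 reads, F3-152 had 1106, 509 and 1216, and F3-600 had 6, 6 and 4. In the bin starting at 109520001 B73 had 200 fragments, F3-152 had 91 and F3-600 had 0, for which the exact upper limit is 3.69 fragments.

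In F3-600 both edges of the stretch were steps at the scale of 1 kb. In the last 1-kb window before the left edge, from 109469001, B73 had 128 reads, F3-152 had 109 and F3-600 had 148. In the first window after it they had 75, 49 and 2 reads. In the following windows, from 109471001 and 109472001, F3-600 had 1 read each against 69 and 109 in B73. At the right edge, the last window inside, from 109759001, had 55, 62 and 1 reads, the first outside had 8, 4 and 0, and the window after that, from 109761001, had 66, 108 and 102. In F3-600 the level thus fell and rose again within 1 to 2 windows of 1 kb, with bins at 27.6 and 26.4 times directly beside the stretch. F3-152 changed at the same places by less, from 37.7 to 6.11 times between the bins on either side of the left edge and from 1.0 to 20.8 times at the right edge. In windows of 1 kb F3-152 fell before the left edge, from 672 reads in the window starting at 109461001 to 148 in that from 109468001. B73 and F3-600 fell over the same windows, from 147 and 275 reads to 43 and 118. In the last window before the edge F3-152 had 109 reads, while B73 and F3-600 were back at 128 and 148. At the right edge B73 rose as well, from 5.06 to 24.3 times between the bins on either side, and 4 of the last 10 windows inside had no read in any library, so this edge was less well resolved than the left.

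**Figure D3:**
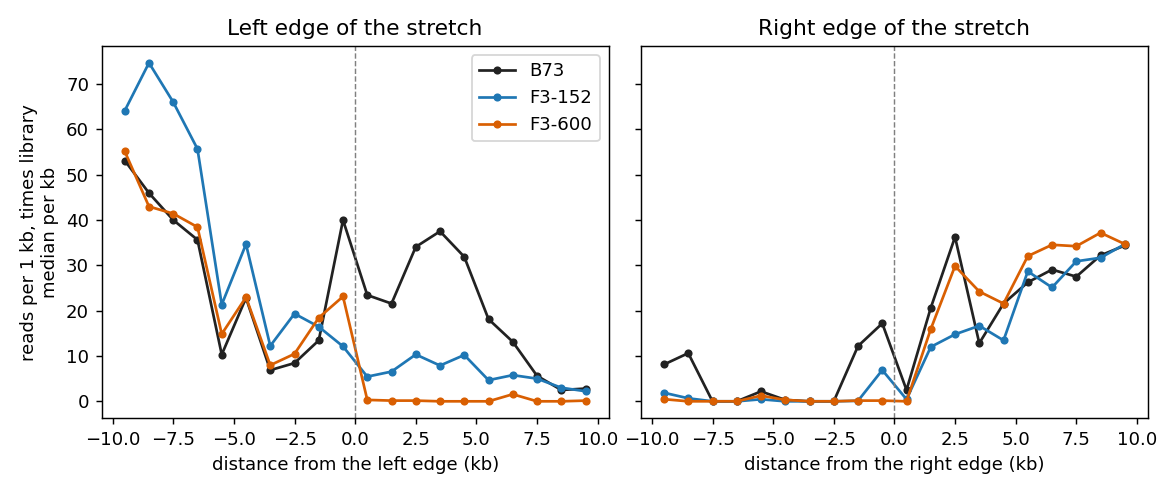
Reads per 1-kb window, scaled to the library median per kb, within 10 kb of the left and the right edge of the stretch (dashed lines) in B73, F3-152 and F3-600. F3-600 goes from 148 to 2 reads across the left edge and from 0 to 102 reads between the first and the second window beyond the right edge, while B73 has reads on both sides of each.

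The reads that F3-600 still had in the stretch differed from the others in mapping quality, which the choice of the interval did not use. Of its 374 reads, 5.88% had the highest mapping quality of 60 (exact binomial interval 3.72% to 8.77%, over reads, whose mates are not independent), against 45.1% of the B73 reads and 47.6% of the F3-152 reads in the same place. In the segment to the left of the stretch, from 109050001 to 109470000, the shares lay nearer to each other, at 37.7%, 38.2% and 36.8%, and in the right flank they were 59.8%, 59.3% and 56.7%. In the segment to the right of the stretch they were 42.5%, 47.3% and 43.3%, and in the extension described further on 43.4%, 55.8% and 49.7%, so no other segment had F3-600 below B73 by a similar margin. Mapping qualities below 30 made up 43.6% of the F3-600 reads in the stretch and 15.1% of the B73 reads. These remaining reads were also bunched: 97 of the 374, or 25.9%, lay in the 3 windows of 1 kb from 109630001 to 109633000. Counts of empty windows rest on the read counts by which the interval and the stretch were chosen, so they are a description only. Of the 199 windows of 1 kb in the stretch that had reads in any library, 117 had none in F3-600, or 58.8%, against 14 in F3-152 and 3 in B73. The longest run of such windows in F3-600 was 14 kb. In the left flank, 3.18% of such windows were empty in F3-600 and 19.3% in B73.

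**Figure D4:**
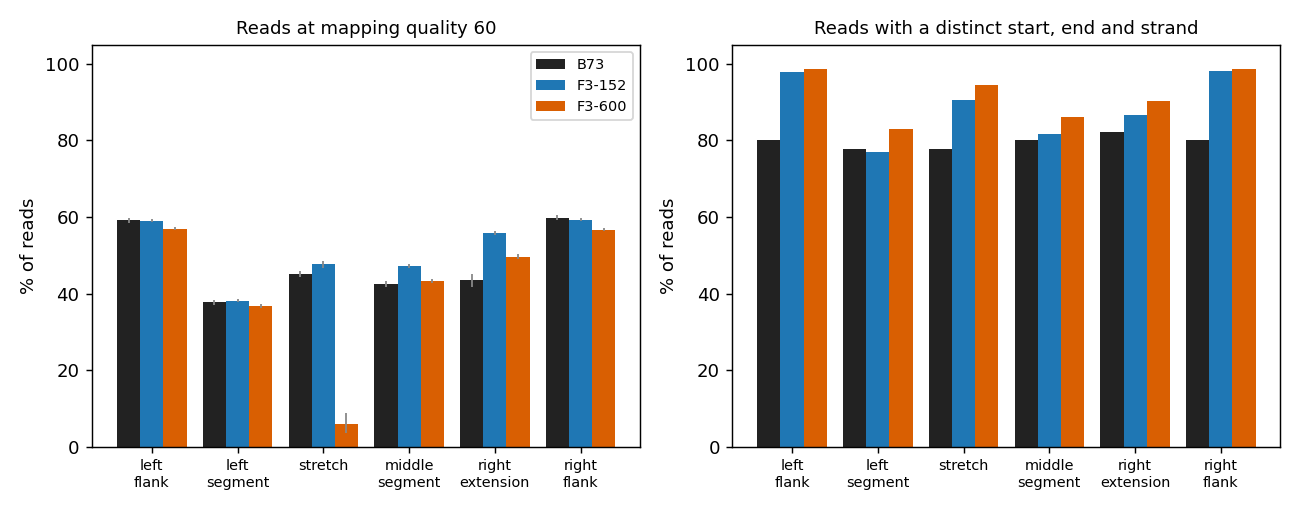
Share of reads at mapping quality 60 (left, with exact binomial intervals at 95% over reads) and share of distinct reads, those of 1 start, end and strand counted as 1 (right) in the 6 segments of the interval for B73, F3-152 and F3-600, as bars from 0. F3-600 in the stretch stands apart with 5.88% of its reads at mapping quality 60.

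Read pairs gave no direct link across the stretch. Of 102779 fragments of F3-600 in the interval with more than 1 read, 44 had reads over 2 kb apart, and 0 had a read close to the left edge and another close to the right edge, that is, within 20 kb outside or 10 kb inside of it. The same count was 0 in B73 and in F3-152, with the same exact upper limit of 3.69 fragments. Only reads that passed the mapping filter could be counted.

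F3-152 was lower than B73 throughout the stretch, but its profile had the same shape. Per bin its level was 0.163 to 0.480 times that of B73 with a median of 0.349 times, and 5 of the 18 bins enriched in B73 were enriched in it. Over the 24 bins with reads Spearman's rho of the levels was 0.91 between F3-152 and B73 (Pearson's r on the log2 scale 0.95). This is a description across bins, which share the mapped sequence. Bins high in B73 tended to be high in F3-152, such as the bin starting at 109610001 with 30.4 times in B73 and 13.5 times in F3-152. The bins with the lowest ratio lay at 109520001 and 109700001, with 0.163 and 0.169 times, the latter beside a run without reads in any library.

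On either side of the stretch all 3 libraries had enriched bins. In the left segment, where 27 bins were enriched in B73, the median of the bins with reads was 12.6 times in B73, 8.70 times in F3-152 and 10.05 times in F3-600, 17 bins were enriched in all 3 libraries and 9 in B73 alone. Per bin, F3-152 was at 0.302 to 1.998 times B73 with a median of 0.619 times, and F3-600 at 0.336 to 1.37 times with a median of 0.897 times. Over fragments F3-152 was at 0.796 times B73 (0.778 to 0.814) and F3-600 at 0.940 times (0.918 to 0.962), the latter being 1.02 times when libraries were scaled to all reads on chromosomes 1 to 10. Scaled to the outer 4 Mb on each side, the ratios were 0.496 times for F3-152 and 0.696 times for F3-600. In the segment to the right of the stretch, from 109760001 to 110230000, the medians were 14.6, 18.6 and 19.1 times, and 15 bins were enriched in all 3. The ratios there were 1.20 times for F3-152 (1.17 to 1.23) and 1.26 times for F3-600 (1.22 to 1.29), and per bin they ran from 0.513 to 3.03 and from 0.489 to 3.24 times. Scaled to the outer 4 Mb instead, the ratios over fragments were below 1 at 0.749 and 0.930 times, so no direction is given for this segment. With the library median, its bins from 110180001 to 110230000, next to the extension, were at 1.83 to 2.51 times B73 in F3-152. In F3-600 they were at 1.83 to 3.24 times. Under that scaling, levels above B73 were thus not confined to the extension described below. Across the 67 bins with reads in both segments, Spearman's rho of the levels was 0.81 between F3-152 and B73, 0.87 between F3-600 and B73 and 0.94 between the F3 lines (Pearson's r on the log2 scale 0.83, 0.87 and 0.95).

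The highest bin of the interval was the same in all 3 libraries and lay just left of the stretch, from 109450001 to 109460000. It had 1689 reads in B73 (52.8 times), 7820 in F3-152 (86.9 times) and 4634 in F3-600 (72.4 times). Part of this height came from repeated reads. With 1 read kept per start, end and strand, the levels were 43.1, 51.9 and 53.6 times, and the bin was still far above the 10 times threshold in each library. The window of 1 kb with the most reads in the left segment, from 109455001, was the same in all 3 libraries as well, with 413, 2128 and 1049 reads. Over all reads, the next highest bins in F3-152 were the neighbours on both sides, with 38.8 and 37.7 times. With repeats removed these neighbours were at 21.9 and 27.6 times. The bin starting at 109960001 was then at 27.9 times in F3-152, so this order rested in part on repeated reads. In F3-600 they were the bins starting at 109360001 and 109330001 with 44.5 and 38.5 times, which were the fourth and the fifth highest in B73 with 35.4 and 33.5 times.

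**Figure D5:**
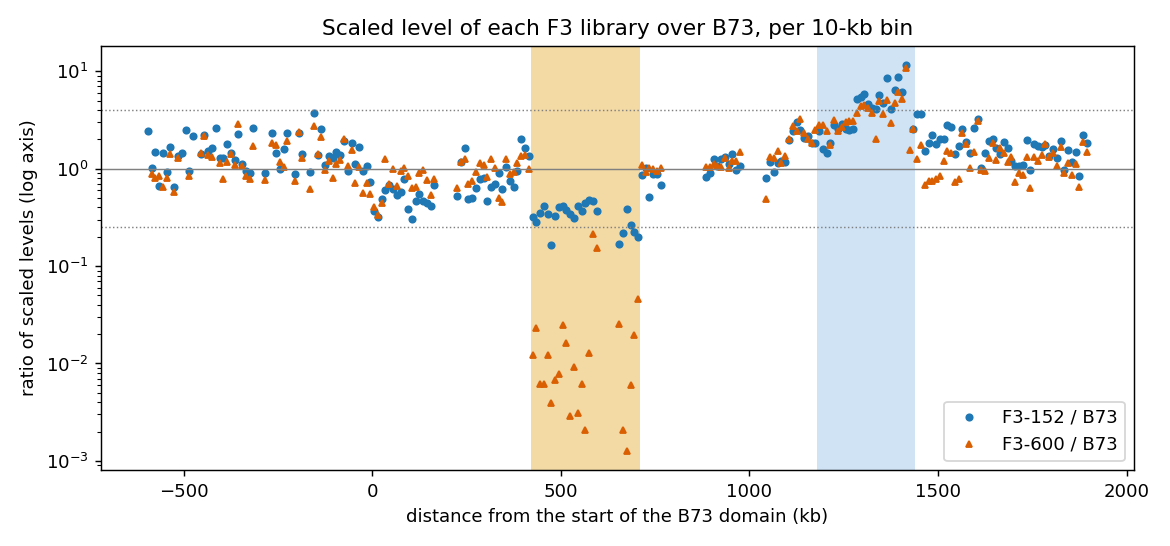
Ratio of the scaled level of F3-152 (circles) and F3-600 (triangles) to B73 in each 10-kb bin (log axis) against the distance from the start of the B73 domain, for bins at or above the median in either library, with counts under 3 reads set to 3. Dotted lines mark 4-fold. In the stretch (orange) F3-152 lies between 0.163 and 0.480 times and F3-600 at or below 0.215 times, and in the extension (blue) both rise to 11.5 and 10.9 times.

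To the right of the B73 domain, both F3 lines had enriched bins over a further 260 kb, from 110230001 to 110490000, in which B73 had no enriched bin. This extension was cut from the end of the B73 domain to the end of the F3 domains. The lack of enriched bins in B73 was therefore fixed by that choice, which also favoured higher levels in the F3 lines. The 26 bins had medians of 2.91 times in B73, 12.02 times in F3-152 and 10.4 times in F3-600, with ranges from 0.656 to 9.66 times, from 0.567 to 26.2 times and from 1.14 to 23.8 times. Enriched bins numbered 19 in F3-152 and 14 in F3-600, and all 14 were among the 19. Over fragments F3-152 was at 3.37 times B73 (3.21 to 3.54) and F3-600 at 3.17 times (3.01 to 3.33). F3-600 was at 0.940 times F3-152 (0.917 to 0.964). In the left and right flanks the same ratios were 1.34 and 1.38 times for F3-152 and 1.12 and 1.14 times for F3-600. When libraries were scaled to the median bin of the outer 4 Mb on each side, the ratios in the extension were 2.10 and 2.34 times.

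The ratio to B73 was larger in the right part of the extension. From 110330001 to 110470000 lay a run of 14 bins, picked by being 4-fold higher in F3-152 than in B73. B73 had a median of 1.97 times there, still above its median of 1.28 times in both flanks. F3-152 and F3-600 had medians of 11.65 and 9.5 times in this run. In the bin starting at 110280001 B73 was at 9.66 times, just under the threshold, with F3-152 at 24.7 and F3-600 at 23.7 times. In the bin starting at 110350001 they were at 4.47, 26.2 and 19.9 times, and in the bin starting at 110460001 at 0.844, 9.73 and 9.20 times. The ratio to B73 was highest in this last bin, at 11.5 times in F3-152 and 10.9 times in F3-600, from 27 reads in B73. The bin starting at 110470001 was low in all libraries, at 0.812, 0.567 and 1.25 times. Bins enriched in F3-152 where B73 was below 2 times its median numbered 4, and for F3-600 there was 1, but no 3 of them were neighbours. With B73 below 5 times, the bins numbered 13 and 9, and runs of 3 or more were found from 110310001 to 110370000 and from 110410001 to 110460000 in F3-152 and from 110340001 to 110370000 in F3-600.

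Counted by the 4-fold rule, F3-152 was higher than B73 in 19 of 1115 bins of the interval, or 1.70%, against 1.14% over chromosomes 1 to 10, and 14 of the 19 lay in the extension, side by side from 110330001 to 110470000. F3-600 was higher in 14 of 1095 bins, or 1.28% against 1.31%, and 9 of the 14 lay in the extension. The share of such bins was near the background for F3-600, and 7 of the 14 lay in runs of 3 or more neighbouring bins. With 2-fold in place of 4-fold, the higher bins covered 2420 kb of the interval in F3-152 and 1610 kb in F3-600, in place of 190 and 140 kb. F3-600 was higher than F3-152 by 4-fold in 0 of 1123 bins, against 1.24%.

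Past the end of the F3 domain the F3 lines differed in level. F3-600 dropped to 1.95 times in the bin starting at 110490001 and was at 2.23 times over the window of 250 kb from 110500001, close to B73 with 2.06 times. F3-152 was at 5.72 times in that bin and at 9.09 times in the bin after it, where F3-600 was at 4.33 times and B73 at 2.50 times, and its medians over the windows of 250 kb from 110500001 and 110750001 were 3.5 and 2.72 times, against 2.01 times over its whole right flank. On the left, the levels in the bin starting at 109020001 were 4.88 times in B73, 4.60 times in F3-152 and 2.72 times in F3-600.

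Fragment lengths differed between libraries more than between segments. The median length of paired fragments in the flanks was 187 and 188 bp in B73, 169 bp in both flanks in F3-152, and 305 and 304 bp in F3-600. In the left segment and the right extension it was 192 and 186.5 bp in B73, 159 bp in both for F3-152, and 309 and 306 bp in F3-600. The fragments of F3-152 in the domain were thus shorter at the median than in its flanks, also in the stretch, at 159 bp, whereas the 176 paired fragments of F3-600 left in the stretch had a median of 250 bp. Fragments of at most 200 bp made up 43.2% of these 176, against 25.2% of those in the left segment of F3-600.

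In the F3 lines the share of repeated reads differed between segments. Counting reads of the same start, end and strand as 1, distinct reads made up 98.0% and 98.1% of the reads in the flanks of F3-152 and 98.8% and 98.6% in those of F3-600, but 76.9% and 83.0% in the left segment, 81.7% and 86.0% in the middle segment and 86.6% and 90.3% in the right extension. In the stretch the shares were 90.6% and 94.4%. In B73 the share moved little, between 77.8% and 82.3% over the 6 segments. With repeats removed the ratio of F3-152 to B73 in the stretch was 0.352 times, above the counting interval of the value with all reads, and that of F3-600 stayed within its interval.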

How the data were processed

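The submitters' processing notes name CASAVA, BWA and B73 RefGen_v4. By the paper's methods, which describe B73 alone, uniquely mapped reads were kept. The authors deposited 1 row per aligned read with its position and its mapping quality as a score (20 to 60), not normalized. Whether duplicates were removed is not given in the sources used here. The libraries held 7716211 (B73), 21026602 (F3-152) and 14454963 (F3-600) reads, of which 79.8%, 96.3% and 96.4% on chromosomes 1 to 10 were distinct. Each read was assigned by its midpoint to a bin of 10 kb, and counts were divided by the median of bins with at least 1 read. Shares of a library and ratios between segments used fragments, scaled likewise. Enriched bins (10 times) up to 500 kb apart formed a domain. Fragments were joined by read name, and pairs within 2 kb gave fragment lengths. For 4-fold comparisons, bins at or above the median in either library were used and counts under 3 reads set to 3. Over chromosomes 1 to 10 the median ratio to B73 was 0.15 (F3-152) and 0.10 (F3-600) on the log2 scale. Shares have exact binomial intervals and ratios exact conditional ones. Mates and duplicates are not independent, so intervals are too narrow.

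The bins named are the domain ends, the 5 highest per library, the interval's ends, runs of at least 3 bins and, chosen after their values were seen, the stretch, its neighbours and the extension. The interval, rules and alternatives were chosen with earlier results of these data known. Alternatives were other scalings, bin sizes, thresholds, merging distances, read filters, folds and thinning. The rules were tested on simulated data with flat domains and a low stretch like the one found. These data had no runs without reads and no domain level near the threshold. They therefore do not test the calls at the domain ends here. Scripts ran in Python 3.11.15 with SciPy 1.17.1 for intervals, NumPy 2.4.6 and pandas 2.3.3 for counting, and Matplotlib 3.10.9 for plots. A genome sequence and gene annotation of this build were not used here, so the repeats and genes of the interval were not analysed here.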

Additional observations from a re-analysis of the deposited data

How the results depend on the processing

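Of 343 values recomputed under alternatives for 33 results, 203 stayed within the limits set for a change, 137 moved and 3 changed direction. With the main settings, the share of reads in the domain was 0.554% (B73), 0.523% (F3-152) and 0.552% (F3-600). The shares given further up as the main result were over fragments, whereas those in this section are compared with these values over reads. The median level over the B73-enriched bins was 20.8, 12.4 and 12.4 times. The B73-enriched length kept was 370 kb (F3-152) and 350 kb (F3-600), and the length nearly empty in F3-600 was 100 kb with a longest run of 30 kb. The length enriched where B73 was below 2 times its median was 40 kb (F3-152) and 10 kb (F3-600), and the length lower by 4-fold 50 kb (F3-152 than B73), 240 kb (F3-600 than B73) and 210 kb (F3-600 than F3-152). The ratios below are over fragments. No paired analysis was possible because there was 1 library per line. Where a setting changes the scaling, bin size, threshold or fold, the values move by its construction, and for the read filters the cause was not tested. Scaling to the outer 4 Mb and mapping quality of 60 were chosen after seeing the data. Mapping quality of at least 30 gave for the share of reads 0.510% (B73), 0.535% (F3-152) and 0.568% (F3-600), for the median level over the B73-enriched bins 13.7 times (F3-152) and 15.5 times (F3-600), for the ratio to B73 in the stretch 0.00844 times (F3-600), for the ratio to B73 in the right extension 3.68 times (F3-152) and 3.36 times (F3-600). Keeping 1 read per start, end and strand gave for the share of reads 0.521% (B73), 0.405% (F3-152) and 0.461% (F3-600), for the median level over the B73-enriched bins 13.5 times (F3-600), for the ratio to B73 in the stretch 0.352 times (F3-152). Fragments in place of reads gave for the share of reads 0.533% (F3-600). Scaling to the reads on chromosomes 1 to 10 gave for the median level over the B73-enriched bins 17.8 times (F3-600), for the ratio to B73 in the stretch 0.356 times (F3-152), for the ratio to B73 in the right extension 3.58 times (F3-152) and 3.45 times (F3-600), for the ratio to B73 in the left segment 1.02 times (F3-600). Scaling to chromosome 4 gave for the median level over the B73-enriched bins 11.1 times (F3-152), for the ratio to B73 in the stretch 0.296 times (F3-152), for the ratio to B73 in the right extension 2.98 times (F3-152) and 2.99 times (F3-600). Scaling to the outer 4 Mb on each side of the interval gave for the enriched length 290 kb (F3-152), for the median level over the B73-enriched bins 18.8 times (B73) and 8.21 times (F3-152), for the B73-enriched length kept 220 kb (F3-152), for the length lower 190 kb (F3-152 than B73), for the length higher 70 kb (F3-152 than B73) and 50 kb (F3-600 than B73), for the ratio to B73 in the stretch 0.209 times (F3-152) and 0.00981 times (F3-600), for the ratio to B73 in the right extension 2.10 times (F3-152) and 2.34 times (F3-600), for the ratio to B73 in the middle segment 0.749 times (F3-152) and 0.930 times (F3-600). Mapping quality of 60 gave for the share of reads 0.369% (B73), 0.427% (F3-152) and 0.414% (F3-600), for the median level over the B73-enriched bins 15.7 times (B73), 14.0 times (F3-152) and 14.0 times (F3-600), for the length higher 360 kb (F3-152 than B73), 220 kb (F3-600 than B73) and 10 kb (F3-600 than F3-152), for the ratio to B73 in the stretch 0.00186 times (F3-600), for the ratio to B73 in the right extension 4.40 times (F3-152) and 3.77 times (F3-600). Bins of 50 kb gave for the share of reads 0.535% (B73), 0.480% (F3-152) and 0.517% (F3-600), for the median level over the B73-enriched bins 15.2 times (B73), 11.5 times (F3-152) and 15.2 times (F3-600), for the nearly empty length 50 kb (F3-600), for its longest run 50 kb (F3-600), for the length lower 0 kb (F3-152 than B73), for the ratio to B73 in the stretch 0.351 times (F3-152), for the ratio to B73 in the right extension 3.34 times (F3-600). Bins of 5 kb gave for the share of reads 0.564% (B73), 0.545% (F3-152) and 0.576% (F3-600), for the median level over the B73-enriched bins 22.4 times (B73), 13.4 times (F3-152) and 17.6 times (F3-600), for its longest run 10 kb (F3-600), for the length lower 100 kb (F3-152 than B73), for the length higher 505 kb (F3-152 than B73) and 365 kb (F3-600 than B73), for the ratio to B73 in the stretch 0.285 times (F3-152) and 0.0114 times (F3-600), for the ratio to B73 in the right extension 2.87 times (F3-152) and 2.73 times (F3-600). A threshold of 5 times the median gave for the share of reads 0.627% (B73), 0.640% (F3-152) and 0.634% (F3-600), for the enriched length 1000 kb (F3-152), for the median level over the B73-enriched bins 15.3 times (B73), 11.5 times (F3-152) and 11.2 times (F3-600), for the B73-enriched length kept 710 kb (F3-152) and 590 kb (F3-600), for the length enriched where B73 was low 100 kb (F3-152) and 90 kb (F3-600). A threshold of 20 times the median gave for the enriched length 320 kb (B73), 270 kb (F3-152) and 280 kb (F3-600), for the share of reads 0.379% (B73), 0.336% (F3-152) and 0.372% (F3-600), for the median level over the B73-enriched bins 27.3 times (B73), 19.8 times (F3-152) and 24.4 times (F3-600), for the B73-enriched length kept 160 kb (F3-152) and 200 kb (F3-600), for the length enriched where B73 was low 0 kb (F3-152) and 0 kb (F3-600). Joining over 100 kb gave for the span 770 kb (B73), 550 kb (F3-152) and 550 kb (F3-600), for the share of reads 0.447% (B73), 0.294% (F3-152) and 0.290% (F3-600). Calling bins nearly empty below 0.05 times gave for the nearly empty length 30 kb (F3-600). A limit of 2-fold gave for the length lower 380 kb (F3-152 than B73), 380 kb (F3-600 than B73) and 420 kb (F3-600 than F3-152), for the length higher 2420 kb (F3-152 than B73), 1610 kb (F3-600 than B73) and 100 kb (F3-600 than F3-152). A limit of 10-fold gave for the length lower 0 kb (F3-152 than B73), for the length higher 20 kb (F3-152 than B73) and 20 kb (F3-600 than B73). Taking B73 as low below 5 times gave for the length enriched where B73 was low 130 kb (F3-152) and 90 kb (F3-600). The depth of B73, with a median of 32 reads per bin, limits the levels of bins near the median, and 3 reads there stand for 0.0938 times.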
